A study of Homo sapiens with 12 samples.

Results

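Cadherins and protocadherins were followed in RNA-seq libraries of RD cells, an established human line from an embryonal rhabdomyosarcoma, which is a soft-tissue tumour with features of developing skeletal muscle. All gene symbols made of CDH or PCDH and a number, and all members of the PCDHA, PCDHB and PCDHG clusters, were taken from the count table by name, whatever their values. This gave 87 genes of 26485, made up of 23 cadherins and 64 protocadherins. All libraries came from RD cells carrying a hairpin, switched on by doxycycline, that targets NT5E, which encodes the cell-surface enzyme CD73. The 4 groups of 3 libraries were ish cells with doxycycline (Dox), ish cells without it, ish2 cells with Dox and ish2 cells without it. Dox was given at 10 ng/mL for 96 h, in medium made for tetracycline-regulated systems. The labels name no parental or non-targeting line with Dox, so a Dox effect covers the drug, the induced hairpin and the loss of NT5E together. Nothing in the labels says that the 3 libraries of a group came from separate cultures or clones, so p-values measure the spread between these libraries, which may be technical.

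Cadherins are membrane proteins that hold neighbouring cells together through calcium-dependent contacts between their extracellular domains. The classical ones are divided into type I and type II, and their cytoplasmic tails bind catenins, which link the junction to actin. In the muscle lineage, N-cadherin (CDH2) and M-cadherin (CDH15) join myoblasts to each other before and during fusion. Protocadherins have related extracellular domains but tails that do not bind catenins. Most of them sit in the alpha, beta and gamma clusters on chromosome 5, where each variable exon has its own promoter, and neurons choose among these promoters to give single cells different surface identities.

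Gene counts per library ran from 26566603 to 32692207. A gene was called when its edgeR quasi-likelihood test gave a Benjamini-Hochberg adjusted p under 0.05 over the 15206 genes tested, and "rose" and "fell" refer to such calls. Levels are in CPM, read counts scaled to library size by TMM factors, and fold changes are Dox over no Dox on the log2 scale. NT5E itself had 1.57 ± 0.354 CPM with Dox and 16.7 ± 1.61 CPM without Dox in ish (mean ± SD, n = 3 each; log2 fold change -3.41, edgeR adjusted p = 3.31e-25). In ish2 it had 14.6 ± 0.542 CPM with Dox and 23.3 ± 1.03 CPM without Dox (log2 fold change -0.67, edgeR adjusted p = 4.62e-11), so the target fell in both constructs and further in ish. The muscle markers MYOD1, MYOG and DES were present in all groups, whereas MYF5 was near 0 and MYF6 averaged at most 1.14 CPM. Of 7 tested muscle markers, 5 rose and 1 fell in ish (71.4% and 14.3%, against 39.1% and 39.5% of all tested genes). Their summed level in ish was 2739 to 2909 CPM with Dox and 1766 to 1842 CPM without Dox. The marker that fell, CHRNA1, had the highest mean of the list in every group. In ish it averaged 824 ± 39.8 CPM with Dox and 999 ± 17.5 CPM without Dox. Of the same 7 markers, 2 rose and 3 fell in ish2 (28.6% and 42.9%, against 33.9% and 31.1% of all tested genes). Their sums in ish2 were 1970 to 2008 CPM with Dox and 1924 to 1973 CPM without Dox. MYOG moved in opposite directions, with 654 ± 16.1 CPM with Dox and 106 ± 3.82 CPM without Dox in ish and 17.6 ± 1.03 CPM with Dox and 82.9 ± 10.3 CPM without Dox in ish2.

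Of the 57 members that passed the filter on low counts, 45 were called in ish, against 78.6% of all tested genes, and 38 in ish2, against 65.0%. As shares of the tested members these are 78.9% and 66.7%, close to the share over all genes. Of the 57, 16 were called in both constructs in opposite directions and 16 in the same direction, each 28.1%, against 26.1% and 27.9% of all tested genes. What follows therefore concerns which members moved and how far, not how many.

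**Figure D1:**
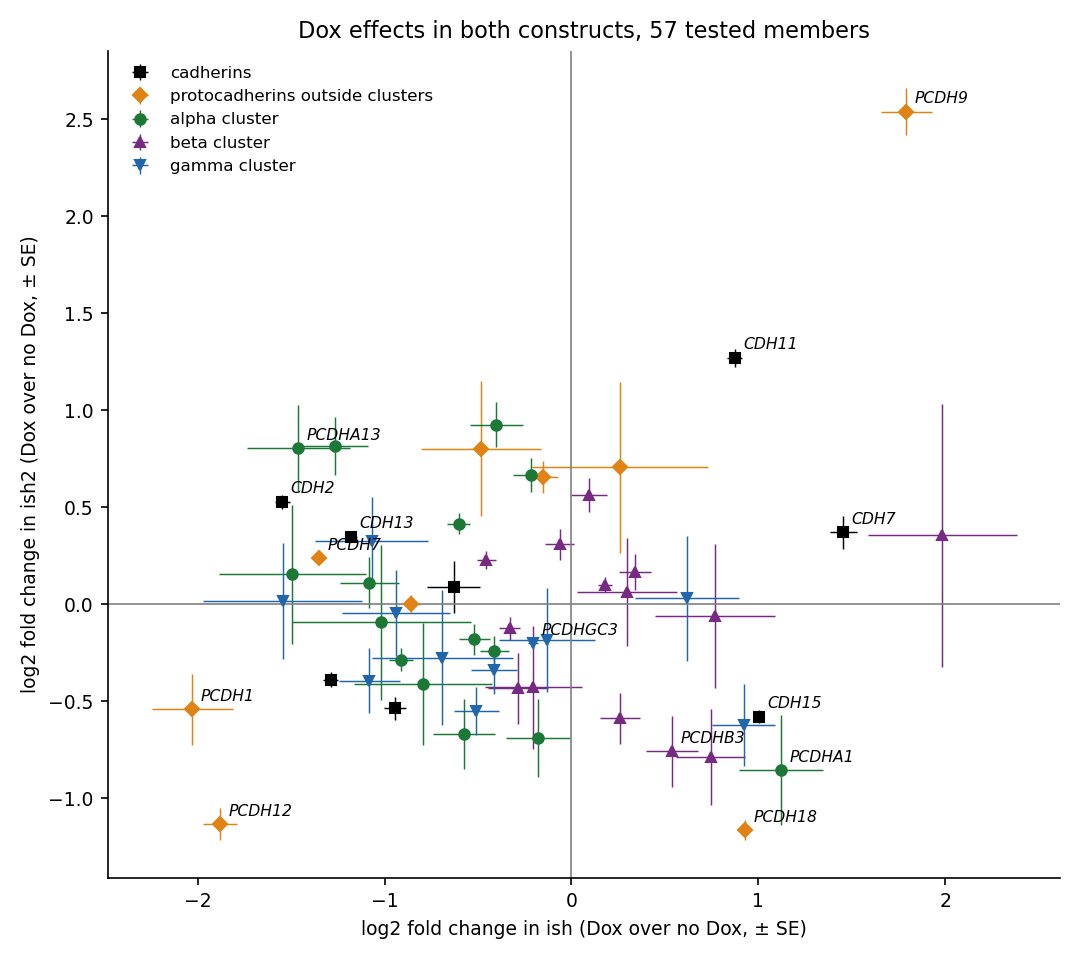
Log2 fold change with Dox in ish (x axis) and in ish2 (y axis) for the 57 tested members, with lines of 1 SE and 1 symbol per family. PCDH9 and CDH11 stand at the upper right, PCDH12 and PCDH1 at the lower left, CDH2, CDH13 and PCDH7 at the upper left and CDH15, PCDH18 and PCDHA1 at the lower right.

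The cluster promoters are shown first, because each variable exon is read from its own promoter. RefSeq promoter sequences (GRCh38.p14, 250 bases before to 50 after the start) were matched for 47 of the 53 clustered members. The letters CGCTG, the core of a conserved element of these promoters, were searched on the given strand and occurred in 40 of 47 (85.1%), against 30.7% of all 35116 promoters in the table. Here and for the longer letters below, a member counted when any of its promoter entries held the letters. All promoters of the table were counted by single entry, so the units differ. On either strand the shares were 87.2% and 48.0%. By cluster, the given strand held it in 8 of 13 alpha, 12 of 14 beta and 20 of 20 gamma promoters. Windows of 40 bases, all on the plus strand with CGCTG in capitals, follow, first for all 8 alpha members that had one, with 2 for PCDHAC2.
PCDHA1 (chr5:140786078-140786117): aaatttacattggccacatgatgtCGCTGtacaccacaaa
PCDHA2 (chr5:140794773-140794812): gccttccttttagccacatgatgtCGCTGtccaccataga
PCDHA5 (chr5:140821534-140821573): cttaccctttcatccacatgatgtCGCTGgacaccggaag
PCDHA6 (chr5:140827889-140827928): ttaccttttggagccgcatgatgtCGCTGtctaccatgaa
PCDHA8 (chr5:140841122-140841161): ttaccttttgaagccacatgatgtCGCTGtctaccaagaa
PCDHA10 (chr5:140855833-140855872): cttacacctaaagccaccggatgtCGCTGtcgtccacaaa
PCDHAC1 (chr5:140926261-140926300): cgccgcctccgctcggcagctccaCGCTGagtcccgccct
PCDHAC2 (chr5:140966294-140966333): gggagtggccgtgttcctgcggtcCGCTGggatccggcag
PCDHAC2 (chr5:140966357-140966396): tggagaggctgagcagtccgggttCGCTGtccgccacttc

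The windows of PCDHA1, PCDHA2, PCDHA5, PCDHA6 and PCDHA8 share a run of 13 bases that ends with the capitals, and the promoters of PCDHA10, PCDHAC1 and PCDHAC2 do not hold it. Windows of 5 beta members whose values are described follow, and they share a run of 10 bases that all 12 beta promoters with CGCTG hold. The longer letters GGCGCTG, which overlap CGCTG, occurred in 12 of 14 beta promoters, in 0 of 13 alpha and 0 of 20 gamma promoters on the given strand, and in 6.50% of all promoters.
PCDHB2 (chr5:141094536-141094575): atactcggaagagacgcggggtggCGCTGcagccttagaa
PCDHB3 (chr5:141100385-141100424): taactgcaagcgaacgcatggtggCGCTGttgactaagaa
PCDHB12 (chr5:141208635-141208674): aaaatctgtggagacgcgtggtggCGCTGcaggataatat
PCDHB13 (chr5:141213857-141213896): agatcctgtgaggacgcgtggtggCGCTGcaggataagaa
PCDHB16 (chr5:141182302-141182341): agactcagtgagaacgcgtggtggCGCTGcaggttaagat

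The 4 gamma windows shown, of members whose values are described, share CGCTGT, which occurred in 17 of 20 gamma promoters, against 5.95% of all promoters. These letters were not particular to gamma. On the given strand they also occurred in 6 of 13 alpha and 1 of 14 beta promoters, and in 4 of 21 members outside the clusters.
PCDHGA4 (chr5:141354952-141354991): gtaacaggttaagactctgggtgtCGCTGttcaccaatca
PCDHGA9 (chr5:141402706-141402745): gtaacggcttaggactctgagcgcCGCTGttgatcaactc
PCDHGA10 (chr5:141412923-141412962): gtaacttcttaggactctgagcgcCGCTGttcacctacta
PCDHGC3 (chr5:141475872-141475911): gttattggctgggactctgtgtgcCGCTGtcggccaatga

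No CGCTG was found on the given strand of the promoter windows of PCDHA4, PCDHA7, PCDHA9, PCDHA11, PCDHA12, PCDHB1 and PCDHB14. Of the 21 cadherins and protocadherins outside the clusters that had a promoter in the table, 13 held CGCTG. A match describes letters only, and binding or methylation at these promoters was not measured. The whole windows of PCDHA1 and PCDHA5, whose expression moved in opposite directions, are given for context.
PCDHA1 (chr5:140785890-140786189): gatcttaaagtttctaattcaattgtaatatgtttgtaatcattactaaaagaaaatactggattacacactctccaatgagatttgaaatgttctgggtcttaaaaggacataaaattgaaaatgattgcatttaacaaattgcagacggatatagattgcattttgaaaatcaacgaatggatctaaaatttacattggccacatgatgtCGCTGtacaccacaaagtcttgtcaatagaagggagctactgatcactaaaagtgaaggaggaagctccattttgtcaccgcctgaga
PCDHA5 (chr5:140821363-140821662): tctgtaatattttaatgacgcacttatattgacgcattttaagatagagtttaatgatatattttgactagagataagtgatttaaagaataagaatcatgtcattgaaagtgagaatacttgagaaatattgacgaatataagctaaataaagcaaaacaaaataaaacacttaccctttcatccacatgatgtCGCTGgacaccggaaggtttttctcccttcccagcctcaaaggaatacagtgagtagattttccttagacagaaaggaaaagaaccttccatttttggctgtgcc

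Among the 8 tested cadherins, 3 rose and 5 fell in ish, where 39.1% of all tested genes rose and 39.5% fell. In ish2, 4 rose and 3 fell, where 33.9% of all tested genes rose and 31.1% fell. The median log2 fold change of the 8 was -0.79 in ish and 0.22 in ish2, against -0.0078 and 0.013 over all tested genes. In libraries of whole cultures, fewer cells of a kind and less RNA per cell cannot be told apart. Exon sequence of all 8 was at least 98.7% unique to the gene in windows of 75 bases, the read length.

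CDH2 encodes N-cadherin and lies on chromosome 18, from 27950966 to 28177446 on the minus strand (GRCh38). In ish it had 152, 149.6 and 149.8 CPM with Dox, against 425, 446 and 448 CPM without Dox. The ish2 libraries had 551, 554 and 563 CPM with Dox, against 406, 398 and 353 CPM without Dox. The ish Dox libraries were the lowest of all 12 and the ish2 Dox libraries the highest, with no overlap between groups in either construct. CDH2 thus fell 2.92-fold in ish (edgeR adjusted p = 8.4e-20, log2 fold change -1.55 ± 0.038 SE) and rose 1.44-fold in ish2 (edgeR adjusted p = 2.58e-11, log2 fold change 0.53 ± 0.036 SE).

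CDH15 encodes M-cadherin, a type I cadherin of satellite cells and myoblasts, on chromosome 16, from 89171767 to 89195492 on the plus strand. It had 386, 368 and 378 CPM with Dox, against 195, 182 and 189 CPM without Dox in ish. Values in ish2 were 134, 134 and 131 CPM with Dox, against 188, 202 and 204 CPM without Dox. Its order was the reverse of that of CDH2, with the ish Dox libraries highest and the ish2 Dox libraries lowest, and no overlap within either construct. It rose 2-fold in ish (edgeR adjusted p = 2.6e-26, log2 fold change 1.00 ± 0.03 SE) and fell 1.49-fold in ish2 (edgeR adjusted p = 7.52e-18, log2 fold change -0.58 ± 0.031 SE). CDH15 is also one of the muscle markers counted earlier. Of the others, MYOG also rose in ish and fell in ish2, whereas MYOD1 and DES rose in both constructs (0.17 and 0.65 in ish2, log2). PAX7 was not called in ish and fell in ish2. MYF6 rose and CHRNA1 fell in ish, without a call in ish2. Whether the change of CDH15 follows muscle differentiation was not tested. Per kilobase of unique exon sequence, the level of CDH15 was 82.1 CPM and that of CDH2 30.9 CPM in ish with Dox. In the other groups CDH2 was the higher one, with 90.4 CPM per kilobase in ish without Dox, 114 in ish2 with Dox and 79.2 in ish2 without Dox, where CDH15 had 41, 28.9 and 43.2.

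CDH4, or R-cadherin, is the remaining type I cadherin that was tested. It had 23.5, 22.9 and 22.7 CPM with Dox, against 57, 57.1 and 54.4 CPM without Dox in ish. For ish2 the values were 42.6, 42 and 40.9 CPM with Dox, against 56.1, 54.2 and 53.9 CPM without Dox. The Dox libraries were the lower ones in both constructs, and the fall was larger in ish (edgeR adjusted p = 5.89e-26, log2 fold change -1.29 ± 0.04 SE) than in ish2 (edgeR adjusted p = 3.1e-11, log2 fold change -0.39 ± 0.038 SE).

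Of the type II cadherins, CDH11 (OB-cadherin), known from bone-forming and mesenchymal cells, lies on chromosome 16, from 64943753 to 65126112 on the minus strand. It had 52.2, 52.7 and 51.3 CPM with Dox, against 28.8, 27.3 and 29 CPM without Dox in ish. ish2 cells had 45.4, 42.1 and 43.2 CPM with Dox, against 18.1, 18.7 and 17.4 CPM without Dox. All 6 Dox libraries lay above all 6 without Dox, a 1.83-fold rise in ish (edgeR adjusted p = 1.32e-20, log2 fold change 0.87 ± 0.041 SE) and a 2.41-fold rise in ish2 (edgeR adjusted p = 5.43e-23, log2 fold change 1.27 ± 0.047 SE). The groups without Dox also differed, and ish2 over ish gave -0.65 ± 0.049 (log2 ± SE). CDH11 exons overlap those of AC010533.1 on the same strand.

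CDH7, a type II cadherin known from the neural crest of the chick, had 33.2, 34.6 and 33.2 CPM with Dox, against 12.2, 12.2 and 12.5 CPM without Dox in ish. The ish2 values were 17.9, 17.7 and 16.2 CPM with Dox, against 13.1, 10.9 and 15.9 CPM without Dox. The rise was 2.74-fold in ish (edgeR adjusted p = 7.14e-15, log2 fold change 1.45 ± 0.073 SE) and smaller in ish2 (edgeR adjusted p = 0.000483, log2 fold change 0.37 ± 0.084 SE). All 3 ish2 libraries with Dox exceeded the 3 without it, which spread widely. Without ish2 no-Dox replicate 2 the ish2 value was smaller (log2 fold change 0.23, edgeR adjusted p = 0.00495). CDH24, a type II cadherin that binds catenins, averaged 13.8 ± 1.25 CPM with Dox and 26.4 ± 1.62 CPM without Dox in ish and 17.4 ± 0.844 CPM with Dox and 25.2 ± 0.958 CPM without Dox in ish2 (SD, n = 3 each), with log2 fold changes of -0.94 ± 0.06 and -0.54 ± 0.06 (± SE; edgeR adjusted p = 1.32e-16 and 7.83e-10). It fell in both constructs.

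The tested cadherins outside the classical types were CDH13 and CDH26. CDH13, or T-cadherin, is held to the membrane by a lipid anchor and has no cytoplasmic tail. It had 45.8, 47 and 47.1 CPM with Dox, against 103, 106 and 109 CPM without Dox in ish. Its ish2 values were 140.1, 136 and 140.4 CPM with Dox, against 108, 111 and 108 CPM without Dox. As for CDH2, the ish Dox libraries were lowest and the ish2 Dox libraries highest, and the gene fell 2.27-fold in ish (edgeR adjusted p = 7.11e-28, log2 fold change -1.18 ± 0.032 SE) and rose 1.27-fold in ish2 (edgeR adjusted p = 5.23e-13, log2 fold change 0.35 ± 0.029 SE). CDH26 was low, with 2.1 ± 0.211 CPM with Dox and 3.25 ± 0.123 CPM without Dox in ish, where it fell (log2 fold change -0.63, edgeR adjusted p = 0.000115). In ish2 it had 3.24 ± 0.505 CPM with Dox and 3.06 ± 0.405 CPM without Dox and was not called (log2 fold change 0.089, edgeR adjusted p = 0.579). Exons of CDH2 and CDH13 overlap long noncoding genes on the opposite strand (AC110015.1 and AC009119.1), and the sources used here do not say whether counting used the strand.

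**Figure D2:**
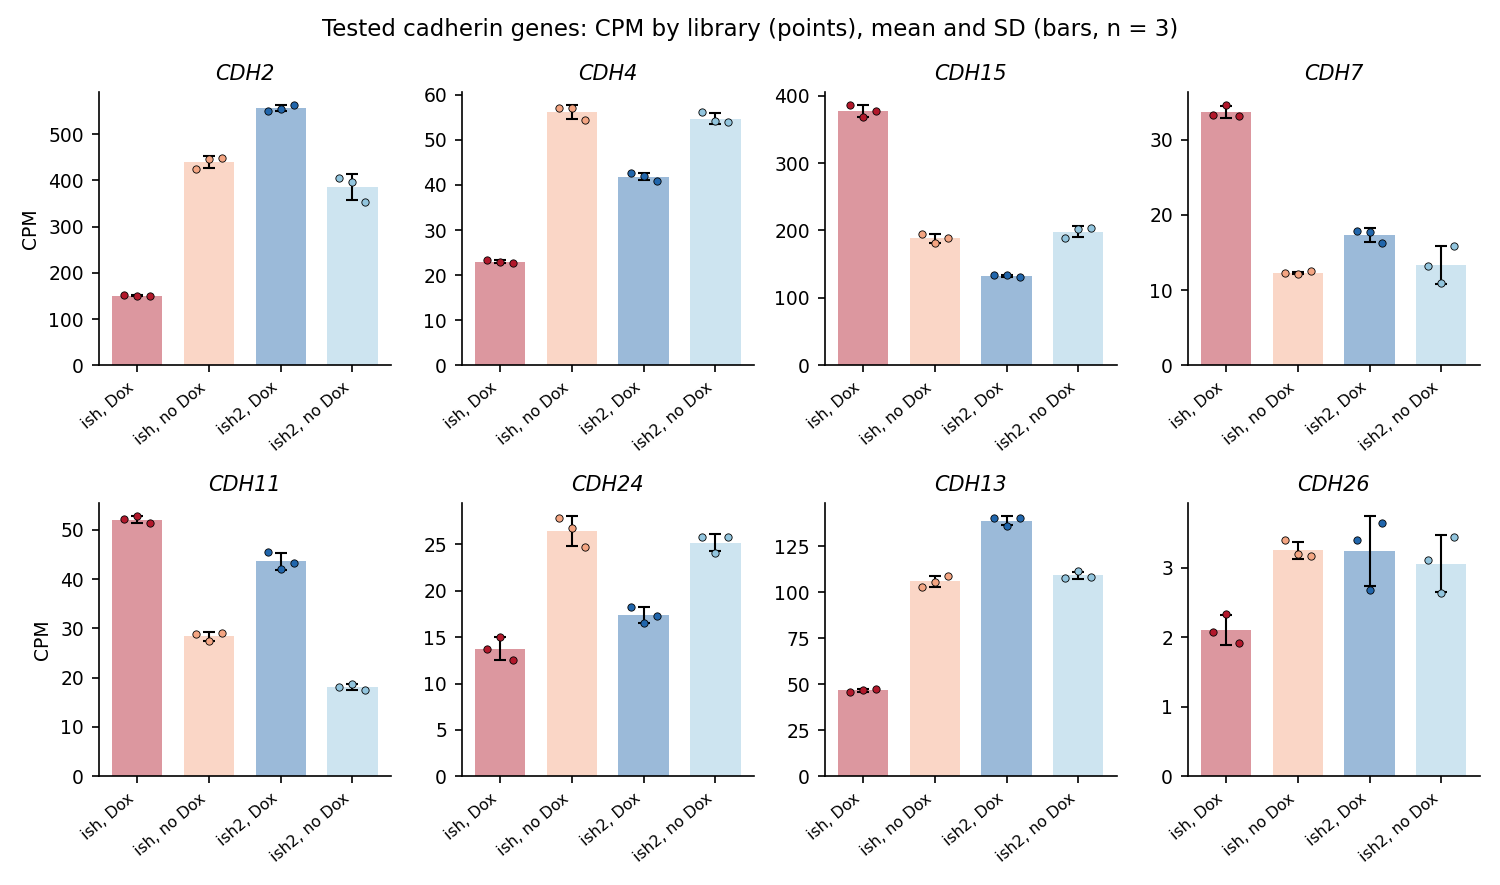
CPM (y axis, from 0) of the 8 tested cadherins in the 4 groups (x axis), with points for the libraries and bars and lines for the mean and SD (n = 3). CDH2 and CDH13 are lowest in ish with Dox and highest in ish2 with Dox, CDH15 shows the reverse order, and CDH11 is higher with Dox in both constructs.

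The difference between constructs was tested as the Dox effect in ish2 minus that in ish. It was called for all 8 cadherins, as for 72.6% of all tested genes, 6 higher in ish2 (37.4% of all tested genes) and 2 lower, CDH15 and CDH7 (35.2%). It was 2.08 ± 0.053 for CDH2 (log2 ± SE; edgeR adjusted p = 2.13e-19), 1.53 ± 0.043 for CDH13 (edgeR adjusted p = 4.53e-27) and -1.58 ± 0.043 for CDH15 (edgeR adjusted p = 4.32e-27). For CDH11 it was 0.40 ± 0.063 (edgeR adjusted p = 8.29e-07), so the shared rise was larger in ish2. CDH1 (E-cadherin) and CDH5 (vascular endothelial cadherin) were not tested. CDH1 averaged at most 0.169 ± 0.292 CPM in any group, in ish2 without Dox and mostly from 1 library, and CDH5 at most 0.0616 ± 0.0571 CPM, in the same group.

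Levels of other cell types' markers moved as well. Their counts of rises and falls stand beside 39.1% and 39.5% of all tested genes in ish and 33.9% and 31.1% in ish2. The summed epithelial markers were 7.12 to 9.30 CPM with Dox and 33.0 to 34.6 CPM without Dox in ish, where 3 of 3 tested fell, and 61.9 to 62.6 CPM with Dox and 38.4 to 43.8 CPM without Dox in ish2, where 3 of 3 rose. The epithelial defining genes EPCAM and CDH1 stayed near 0. The endothelial sum was 57.5 to 59.9 CPM with Dox and 114.7 to 124.0 CPM without Dox in ish (2 of 3 fell), and 131.3 to 141.2 CPM with Dox and 118.4 to 131.4 CPM without Dox in ish2 (1 of 3 rose), with PECAM1, CDH5 and KDR near 0. The epithelial sum, made up mostly of KRT18, had the same direction in each construct as CDH2 and CDH13. The endothelial sum, made up mostly of ENG, had their direction in ish, while in ish2 its ranges with and without Dox overlapped. There ENG rose, and TEK and VWF were not called (log2 fold change -0.037 and -0.091). The part of these markers in the changes of CDH2 and CDH13 was not tested. Neural and glial markers summed to 938.2 to 947.3 CPM with Dox and 579.2 to 582.8 CPM without Dox in ish (3 of 4 rose) and to 598.3 to 608.0 CPM with Dox and 610.8 to 626.0 CPM without Dox in ish2 (1 rose, 1 fell). Nearly all of this sum came from TUBB3, MAP2 and NCAM1. SOX10, SOX2, S100B and ELAVL4 stayed near 0, and GFAP averaged at most 0.43 CPM in any group. Fibroblast markers summed to 109.6 to 114.9 CPM with Dox and 168.1 to 175.5 CPM without Dox in ish (2 of 3 rose, 1 fell) and to 175.8 to 187.6 CPM with Dox and 203.0 to 219.1 CPM without Dox in ish2 (1 rose, 2 fell). COL1A1, which fell in both constructs, made up nearly all of the fibroblast sum. DCN and LUM, which rose in ish, averaged at most 0.503 and 1.34 CPM in any group. Immune markers summed to at most 1.34 CPM in any library.

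Among the 49 tested protocadherins, 12 rose and 25 fell in ish (24.5% and 51.0%, against 39.1% and 39.5% of all tested genes), and 13 rose and 18 fell in ish2 (26.5% and 36.7%, against 33.9% and 31.1%). The median log2 fold change of the 49 was -0.40 in ish and -0.059 in ish2. The Dox effect was called higher in ish2 than in ish for 24 and lower for 6 (49.0% and 12.2%, against 37.4% and 35.2% of all tested genes).

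The 9 tested protocadherins outside the clusters are described first. They had exon sequence entirely unique to each gene. Summed over all 11, their level was 278, 282 and 277 CPM with Dox, against 525, 520.1 and 513 CPM without Dox in ish, and 677, 676 and 683 CPM with Dox, against 616, 591 and 606 CPM without Dox in ish2. PCDH7 made up most of these sums. PCDH7, a delta-type protocadherin whose product can bind the phosphatase inhibitor SET, lies on chromosome 4, from 30720415 to 31146805 on the plus strand. In ish it had 161, 162 and 162 CPM with Dox, against 419, 412 and 404 CPM without Dox. The ish2 libraries had 591, 593 and 599 CPM with Dox, against 512, 497 and 505 CPM without Dox. As for CDH2 and CDH13, the ish Dox libraries were lowest and the ish2 Dox libraries highest. PCDH7 fell 2.55-fold in ish (edgeR adjusted p = 7.82e-33, log2 fold change -1.35 ± 0.025 SE) and rose 1.18-fold in ish2 (edgeR adjusted p = 6.79e-11, log2 fold change 0.24 ± 0.024 SE).

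PCDH18, a delta-type protocadherin that binds the adaptor Dab1 in the mouse, went the other way. It had 78.2, 81.1 and 76.6 CPM with Dox, against 39.8, 42.1 and 42 CPM without Dox in ish. Values in ish2 were 16.3, 15 and 15.8 CPM with Dox, against 34.6, 33.6 and 37.4 CPM without Dox. The ish Dox libraries were highest and the ish2 Dox libraries lowest, as for CDH15. The rise was 1.9-fold in ish (edgeR adjusted p = 4.12e-22, log2 fold change 0.93 ± 0.039 SE) and the fall 2.24-fold in ish2 (edgeR adjusted p = 1.58e-20, log2 fold change -1.17 ± 0.052 SE), a difference of -2.09 ± 0.065 (log2 ± SE).

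PCDH9, PCDH12 and PCDH1 moved in the same direction in both constructs. PCDH9, expressed mainly in the nervous system, had 4.04, 4.32 and 4.71 CPM with Dox, against 1.45, 1.15 and 1.18 CPM without Dox in ish, and 9.25, 8.75 and 8.66 CPM with Dox, against 1.77, 1.43 and 1.37 CPM without Dox in ish2. It rose 3.46-fold in ish and 5.82-fold in ish2, more in ish2 by 0.75 ± 0.20 (log2 ± SE; edgeR adjusted p = 0.00128). PCDH12, first known from endothelial cells, had 3.05, 3.22 and 3.42 CPM with Dox, against 12.4, 11.3 and 12 CPM without Dox in ish. For ish2 the values were 6.27, 4.93 and 5.56 CPM with Dox, against 12.5, 12.5 and 11.9 CPM without Dox. All Dox libraries were below all others, falls of 3.68-fold (edgeR adjusted p = 2.31e-20, log2 fold change -1.88 ± 0.089 SE) and 2.19-fold (edgeR adjusted p = 1.5e-14, log2 fold change -1.13 ± 0.082 SE). On the opposite strand, exons of PCDH12 overlap RNF14, those of PCDH9 overlap PCDH9-AS1 and those of PCDH17, described below, overlap AL445288.1.

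PCDH1, a protocadherin of airway epithelium, fell to 0.755, 0.598 and 0.462 CPM with Dox in ish, against 2.57, 2.23 and 2.61 CPM without Dox (edgeR adjusted p = 1.65e-10, log2 fold change -2.03 ± 0.22 SE). ish2 cells had 1.75, 1.59 and 1.69 CPM with Dox, against 3.32, 2.14 and 1.88 CPM without Dox (log2 fold change -0.54, edgeR adjusted p = 0.00906). The ish2 fall rested on no-Dox replicate 1, without which it was not called (log2 fold change -0.27, edgeR adjusted p = 0.22). PCDH15, a component of the tip link of inner-ear hair cells, averaged 23.7 ± 0.468 CPM with Dox and 42.9 ± 0.48 CPM without Dox in ish and fell (log2 fold change -0.86, edgeR adjusted p = 2.56e-18). In ish2 it averaged 41.4 ± 0.377 CPM with Dox and 41.3 ± 3.6 CPM without Dox, with no call (log2 fold change 0.003, edgeR adjusted p = 0.958). PCDH17, a delta-type protocadherin of the nervous system, had the converse pattern. It averaged 9.79 ± 0.613 CPM with Dox and 6.23 ± 0.341 CPM without Dox in ish2 and rose (log2 fold change 0.65, edgeR adjusted p = 9.71e-09), while in ish it averaged 6.47 ± 0.256 CPM with Dox and 7.2 ± 0.375 CPM without Dox (log2 fold change -0.15, edgeR adjusted p = 0.0872).

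PCDH10 and PCDH19, both of the delta type, were under 1 CPM in every library. PCDH10 averaged 0.494 ± 0.0401 CPM with Dox and 0.28 ± 0.0718 CPM without Dox in ish2 and was called higher (log2 fold change 0.80, edgeR adjusted p = 0.0426). That call was lost without ish no-Dox replicate 2, without any 1 of the 3 ish2 Dox replicates, and without ish2 no-Dox replicate 2 or 3 (edgeR adjusted p = 0.0515 to 0.146). It was also lost with the replicate block, with no filter on low counts and with DESeq2 (adjusted p = 0.0502, 0.0781 and 0.133). PCDH19 was not called in either construct over all libraries. In ish its log2 fold change ran from -0.25 to 1.25 as single libraries were left out, and it was called higher without ish no-Dox replicate 1. PCDH8 and PCDH20 were not tested.

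**Figure D3:**
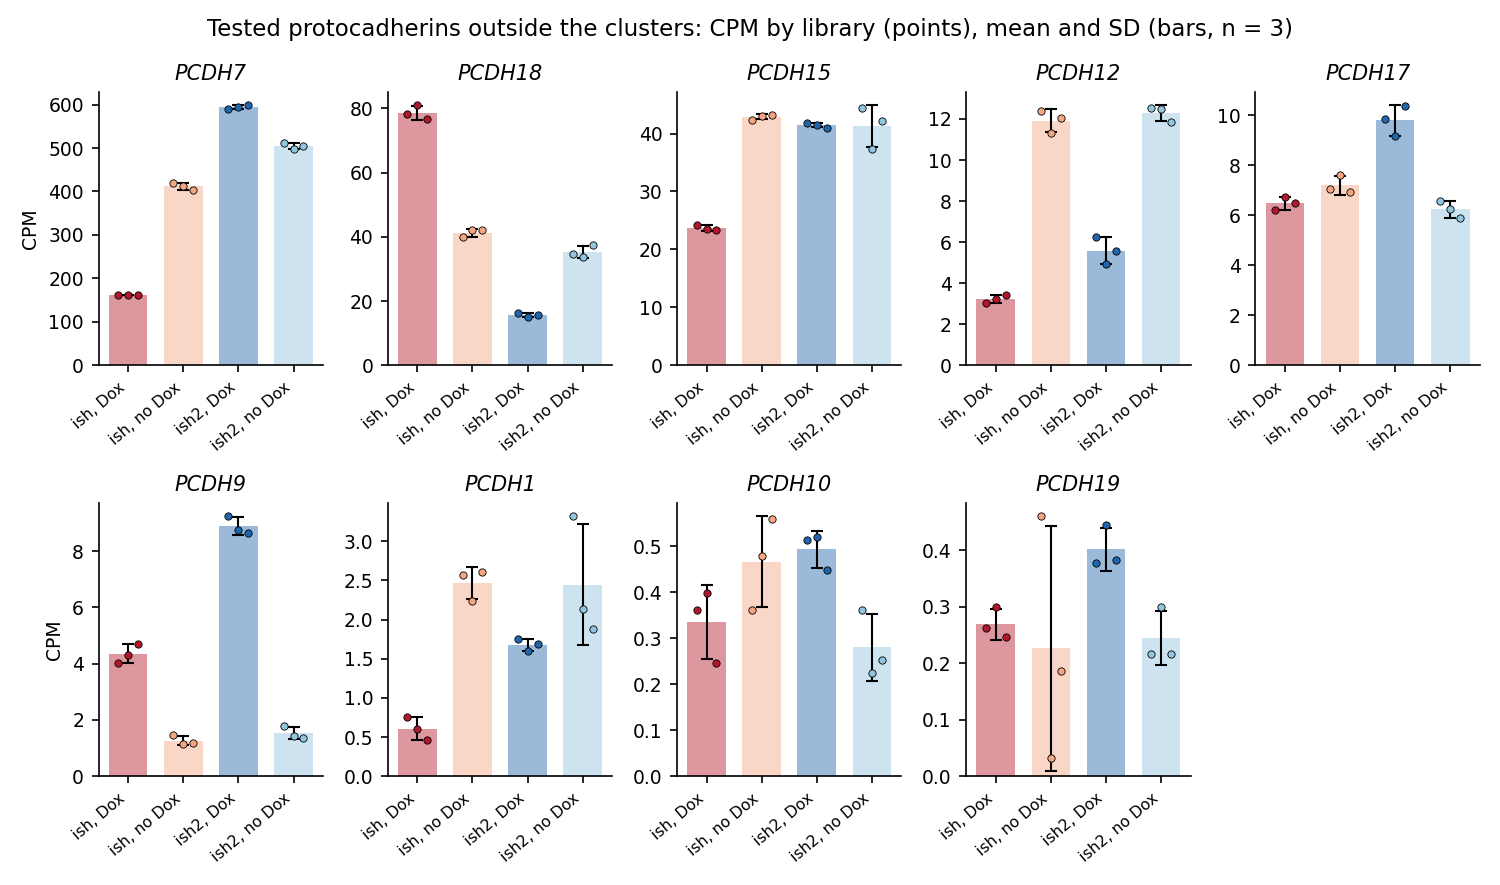
CPM (y axis, from 0) of the 9 tested protocadherins outside the clusters in the 4 groups (x axis), with points for the libraries and bars and lines for the mean and SD (n = 3). PCDH7 is lowest in ish with Dox and highest in ish2 with Dox, PCDH18 is the reverse, and PCDH9 is higher and PCDH12 lower with Dox in both constructs.

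The clustered genes share their sequence to differing degrees. In windows of 75 bases, 40.6% to 78.5% of the exon sequence of alpha members was unique to the gene, 70.9% to 100% for beta members and 49.9% to 66.3% for gamma members, since alpha genes share their constant exons and so do gamma genes. Reads from a constant exon cannot be given to 1 member, and beta members that share sequence with other genes can exchange reads with them, so single values are uncertain to that extent. The share of reads listed as ambiguous also differed, at 2.08% to 2.10% with Dox and 2.59% to 2.65% without Dox in ish, and 2.34% to 2.37% with Dox and 2.57% to 2.58% without Dox in ish2. Its part in the results on the clusters was not tested. On the same strand, exons of PCDHB16 overlap AC244517.6 and AC244517.8, those of PCDHB9 overlap AC244517.6 and those of PCDHB14 overlap AC244517.10.

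Summed over all 15 members, the alpha cluster had 52.3, 52.6 and 53.1 CPM with Dox, against 78.7, 81 and 80.0 CPM without Dox in ish. In ish2 it had 87, 95.5 and 93 CPM with Dox, against 86.2, 83.5 and 82.8 CPM without Dox. The ish Dox libraries were the lowest, at 0.659 of the level without Dox, and the ish2 Dox libraries all lay above those without Dox, at 1.09 times. The beta sum was 117 ± 1.29 CPM with Dox and 117 ± 3.96 CPM without Dox in ish, whose ranges overlap, and 127 ± 1.85 CPM with Dox and 119 ± 2.18 CPM without Dox in ish2, where they do not (SD, n = 3 each). The gamma sum was lower with Dox in both constructs, with 229 ± 7.94 CPM with Dox and 266 ± 6.22 CPM without Dox in ish, and 241 ± 5.68 CPM with Dox and 279 ± 2.66 CPM without Dox in ish2. PCDHGC3 made up most of the gamma sum. The other 21 gamma members together had 13.8 ± 0.583 CPM with Dox and 18.4 ± 0.751 CPM without Dox in ish, and 14.9 ± 0.995 CPM with Dox and 19 ± 1.15 CPM without Dox in ish2. These sums are descriptions and were not tested.

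**Figure D4:**
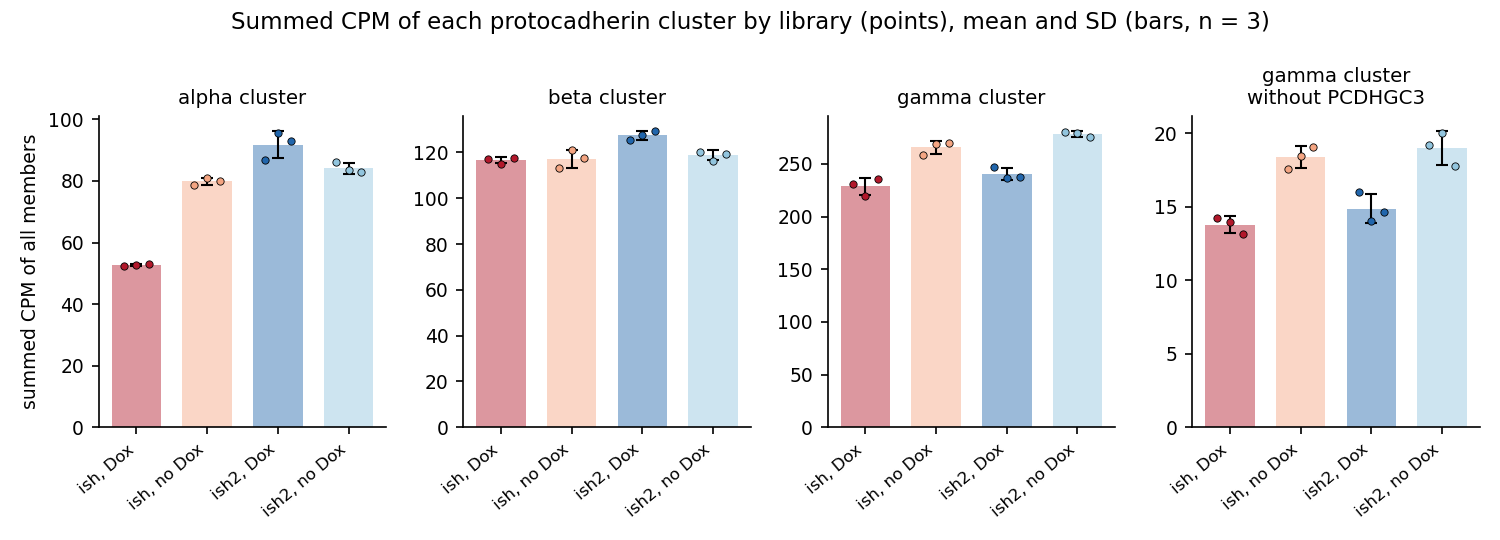
Summed CPM (y axis, from 0) of all members of the alpha, beta and gamma clusters, and of gamma without PCDHGC3, in the 4 groups (x axis), with points for the libraries and bars and lines for the mean and SD (n = 3). The alpha sum is lowest in ish with Dox, the beta sum changes least, and the gamma sum is lower with Dox in both constructs.

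In the alpha cluster, 1 of 15 tested members rose and 12 fell in ish (6.67% and 80.0%, against 39.1% and 39.5% of all tested genes), and 5 rose and 6 fell in ish2. The ish2 shares, 33.3% and 40%, were near those of all tested genes, 33.9% and 31.1%. PCDHAC2 and PCDHAC1, whose exons lie last in the cluster and are of the C type that neurons express without promoter choice, were the most abundant. PCDHAC2 averaged 11.7 ± 0.923 CPM with Dox and 22 ± 0.944 CPM without Dox in ish and 18 ± 0.843 CPM with Dox and 22 ± 1.46 CPM without Dox in ish2 and fell in both (log2 fold change -0.91 ± 0.062 and -0.29 ± 0.059, ± SE). PCDHAC1 had 10.4, 10.7 and 11.7 CPM with Dox, against 16, 18 and 15.9 CPM without Dox in ish and 25.4, 24.9 and 26 CPM with Dox, against 19.1, 19.1 and 19.1 CPM without Dox in ish2. It fell in ish (edgeR adjusted p = 6.71e-11, log2 fold change -0.60 ± 0.063 SE) and rose in ish2 (edgeR adjusted p = 2.47e-08, log2 fold change 0.41 ± 0.054 SE), with no overlap between Dox and no Dox in either.

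The opposite moves of PCDHAC1 recurred at some variable exons, those of PCDHA4, PCDHA5, PCDHA7 and PCDHA13. Others between and beside them did not share the pattern. PCDHA3, PCDHA6 and PCDHA11 fell in both constructs, and PCDHA8, PCDHA10 and PCDHA12 fell in ish without a call in ish2. PCDHA7 had 0.82, 0.797 and 0.862 CPM with Dox, against 1.98, 1.95 and 2.05 CPM without Dox in ish. The ish2 values were 3.05, 2.56 and 3.07 CPM with Dox, against 1.55, 1.69 and 1.7 CPM without Dox. It fell in ish (edgeR adjusted p = 5.64e-08, log2 fold change -1.26 ± 0.18 SE) and rose in ish2 (edgeR adjusted p = 9.58e-06, log2 fold change 0.82 ± 0.15 SE). PCDHA13 was at most 1.45 CPM in any library and averaged 0.32 ± 0.0962 CPM with Dox and 0.896 ± 0.0803 CPM without Dox in ish and 1.29 ± 0.14 CPM with Dox and 0.731 ± 0.0479 CPM without Dox in ish2, with log2 fold changes of -1.46 ± 0.27 and 0.81 ± 0.22 (± SE; edgeR adjusted p = 1.07e-05 and 0.00174). Its difference between constructs, 2.27 ± 0.35 (log2 ± SE), was the largest of the alpha members tested.

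PCDHA5, whose window was printed, had 1.94, 2.39 and 2.62 CPM with Dox, against 2.9, 3.32 and 2.98 CPM without Dox in ish. Its ish2 values were 6.07, 7.94 and 6.39 CPM with Dox, against 4.05, 3.34 and 3.29 CPM without Dox. The ish2 rise (edgeR adjusted p = 1.38e-08, log2 fold change 0.93 ± 0.12 SE) separated the groups, while the ish fall (edgeR adjusted p = 0.0116, log2 fold change -0.40 ± 0.14 SE) was not called without Dox replicate 1 (log2 fold change -0.29, edgeR adjusted p = 0.087) or without no-Dox replicate 2 (log2 fold change -0.35, edgeR adjusted p = 0.054). PCDHA4 averaged 12.3 ± 0.828 CPM with Dox and 7.71 ± 0.795 CPM without Dox in ish2 and rose (log2 fold change 0.67, edgeR adjusted p = 2.19e-08). Its fall in ish (log2 fold change -0.22, edgeR adjusted p = 0.035) was lost without ish Dox replicate 2 or 3 or without ish no-Dox replicate 1 (edgeR adjusted p = 0.104 to 0.222), and with DESeq2 (adjusted p = 0.085). PCDHA12 averaged 1.41 ± 0.191 CPM with Dox and 2.99 ± 0.359 CPM without Dox in ish and fell (log2 fold change -1.08, edgeR adjusted p = 1.21e-07), with no call in ish2 (log2 fold change 0.11, edgeR adjusted p = 0.478).

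PCDHA1, at the start of the cluster, was the 1 alpha member that rose in ish. It had 1.12, 1.43 and 1.29 CPM with Dox, against 0.461, 0.67 and 0.621 CPM without Dox in ish, a rise with no overlap (edgeR adjusted p = 3.35e-05, log2 fold change 1.12 ± 0.23 SE). In ish2 it had 0.411, 0.408 and 0.447 CPM with Dox, against 0.65, 0.976 and 0.687 CPM without Dox and fell (log2 fold change -0.86, edgeR adjusted p = 0.00866), a call that was lost without ish2 no-Dox replicate 2 (log2 fold change -0.67, edgeR adjusted p = 0.07). PCDHA2 and PCDHA3, the next exons, both fell in ish2 (log2 fold change -0.69 ± 0.20 and -0.67 ± 0.18, ± SE), and PCDHA3 also fell in ish (-0.57 ± 0.17). PCDHA6 averaged 7.94 ± 0.625 CPM with Dox and 10.6 ± 0.506 CPM without Dox in ish and 9.48 ± 0.736 CPM with Dox and 11.2 ± 0.69 CPM without Dox in ish2 and fell in both (log2 fold change -0.41 ± 0.077 and -0.24 ± 0.076, ± SE). PCDHA8, PCDHA9 and PCDHA10 were under 1 CPM throughout.

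In the beta cluster, whose genes each have a single exon, 7 of 14 tested members rose and 2 fell in ish (50% and 14.3%, against 39.1% and 39.5% of all tested genes), and 4 rose and 4 fell in ish2 (28.6% each way, against 33.9% and 31.1%). PCDHB2 was the most abundant, with 47, 46.4 and 47.4 CPM with Dox, against 39.8, 43 and 41.6 CPM without Dox in ish and 48.3, 46.7 and 48.2 CPM with Dox, against 44.7, 44.2 and 44.7 CPM without Dox in ish2. Its changes were small, a rise in ish (edgeR adjusted p = 6.42e-05, log2 fold change 0.18 ± 0.038 SE) and a rise in ish2 (log2 fold change 0.10, edgeR adjusted p = 0.0199). The ish2 call was lost without ish2 Dox replicate 1 or 3 and without any 1 of the 3 ish2 no-Dox replicates (edgeR adjusted p = 0.0608 to 0.119). It was also lost in the fit on the own 6 libraries (edgeR adjusted p = 0.0508) and with DESeq2 (adjusted p = 0.0698). PCDHB16 had 20.1, 18.2 and 19.5 CPM with Dox, against 25.5, 27.2 and 26.6 CPM without Dox in ish and 30.6, 32.9 and 34.1 CPM with Dox, against 28.1, 27.6 and 27.8 CPM without Dox in ish2. It fell in ish (edgeR adjusted p = 3.9e-10, log2 fold change -0.46 ± 0.051 SE) and rose in ish2 (edgeR adjusted p = 8.52e-05, log2 fold change 0.23 ± 0.048 SE).

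PCDHB3, PCDHB12 and PCDHB13 had the converse pattern, higher with Dox in ish and lower with Dox in ish2. PCDHB3 had 2.63, 2.89 and 3.29 CPM with Dox, against 2.11, 1.95 and 2.02 CPM without Dox in ish (edgeR adjusted p = 0.000692, log2 fold change 0.54 ± 0.14 SE). The ish2 libraries had 0.959, 1 and 1.18 CPM with Dox, against 1.63, 1.91 and 1.81 CPM without Dox (edgeR adjusted p = 0.000478, log2 fold change -0.76 ± 0.18 SE). All ish Dox libraries lay above, and all ish2 Dox libraries below, every library without Dox. PCDHB13 averaged 2.02 ± 0.12 CPM with Dox and 1.21 ± 0.276 CPM without Dox in ish (log2 fold change 0.74, edgeR adjusted p = 0.000394) and 0.642 ± 0.0612 CPM with Dox and 1.11 ± 0.253 CPM without Dox in ish2 (log2 fold change -0.79, edgeR adjusted p = 0.00537), where the call was lost without no-Dox replicate 1 (log2 fold change -0.62, edgeR adjusted p = 0.0521). PCDHB12 averaged 2.34 ± 0.232 CPM with Dox and 3.51 ± 0.448 CPM without Dox in ish2 and fell (log2 fold change -0.59, edgeR adjusted p = 0.000177). Its rise in ish (log2 fold change 0.26, edgeR adjusted p = 0.0285) was lost without ish Dox replicate 2 or 3 or without ish no-Dox replicate 1 or 2 (edgeR adjusted p = 0.0536 to 0.1), and with DESeq2 (adjusted p = 0.0803).

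PCDHB6 and PCDHB9 rose in ish2 (log2 fold change 0.56 ± 0.089 and 0.31 ± 0.078, ± SE) and were not called in ish (0.093 and -0.062). PCDHB11 averaged 13.7 ± 0.372 CPM with Dox and 17.2 ± 0.741 CPM without Dox in ish and fell (log2 fold change -0.33, edgeR adjusted p = 3.5e-06). In ish2 its log2 fold change was -0.12 (edgeR adjusted p = 0.068), a value that was called when ish Dox replicate 1, ish no-Dox replicate 1 or 2, ish2 Dox replicate 2 or ish2 no-Dox replicate 2 was left out (-0.19 to -0.11 over all leave-outs). The difference of PCDHB11 between constructs (0.21 ± 0.084, ± SE) was lost without ish Dox replicate 2 or 3, ish no-Dox replicate 2, ish2 Dox replicate 1 or 2, or ish2 no-Dox replicate 2 (edgeR adjusted p = 0.0503 to 0.104), and with DESeq2 (adjusted p = 0.109). PCDHB14 rose in ish to 8.09 ± 0.539 CPM with Dox, against 6.4 ± 0.51 CPM without Dox (log2 fold change 0.34, edgeR adjusted p = 0.000573). PCDHB1 had the largest fold change of the beta members in ish (1.99 ± 0.40, log2 ± SE) but a level below 1 CPM in all libraries.

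**Figure D5:**
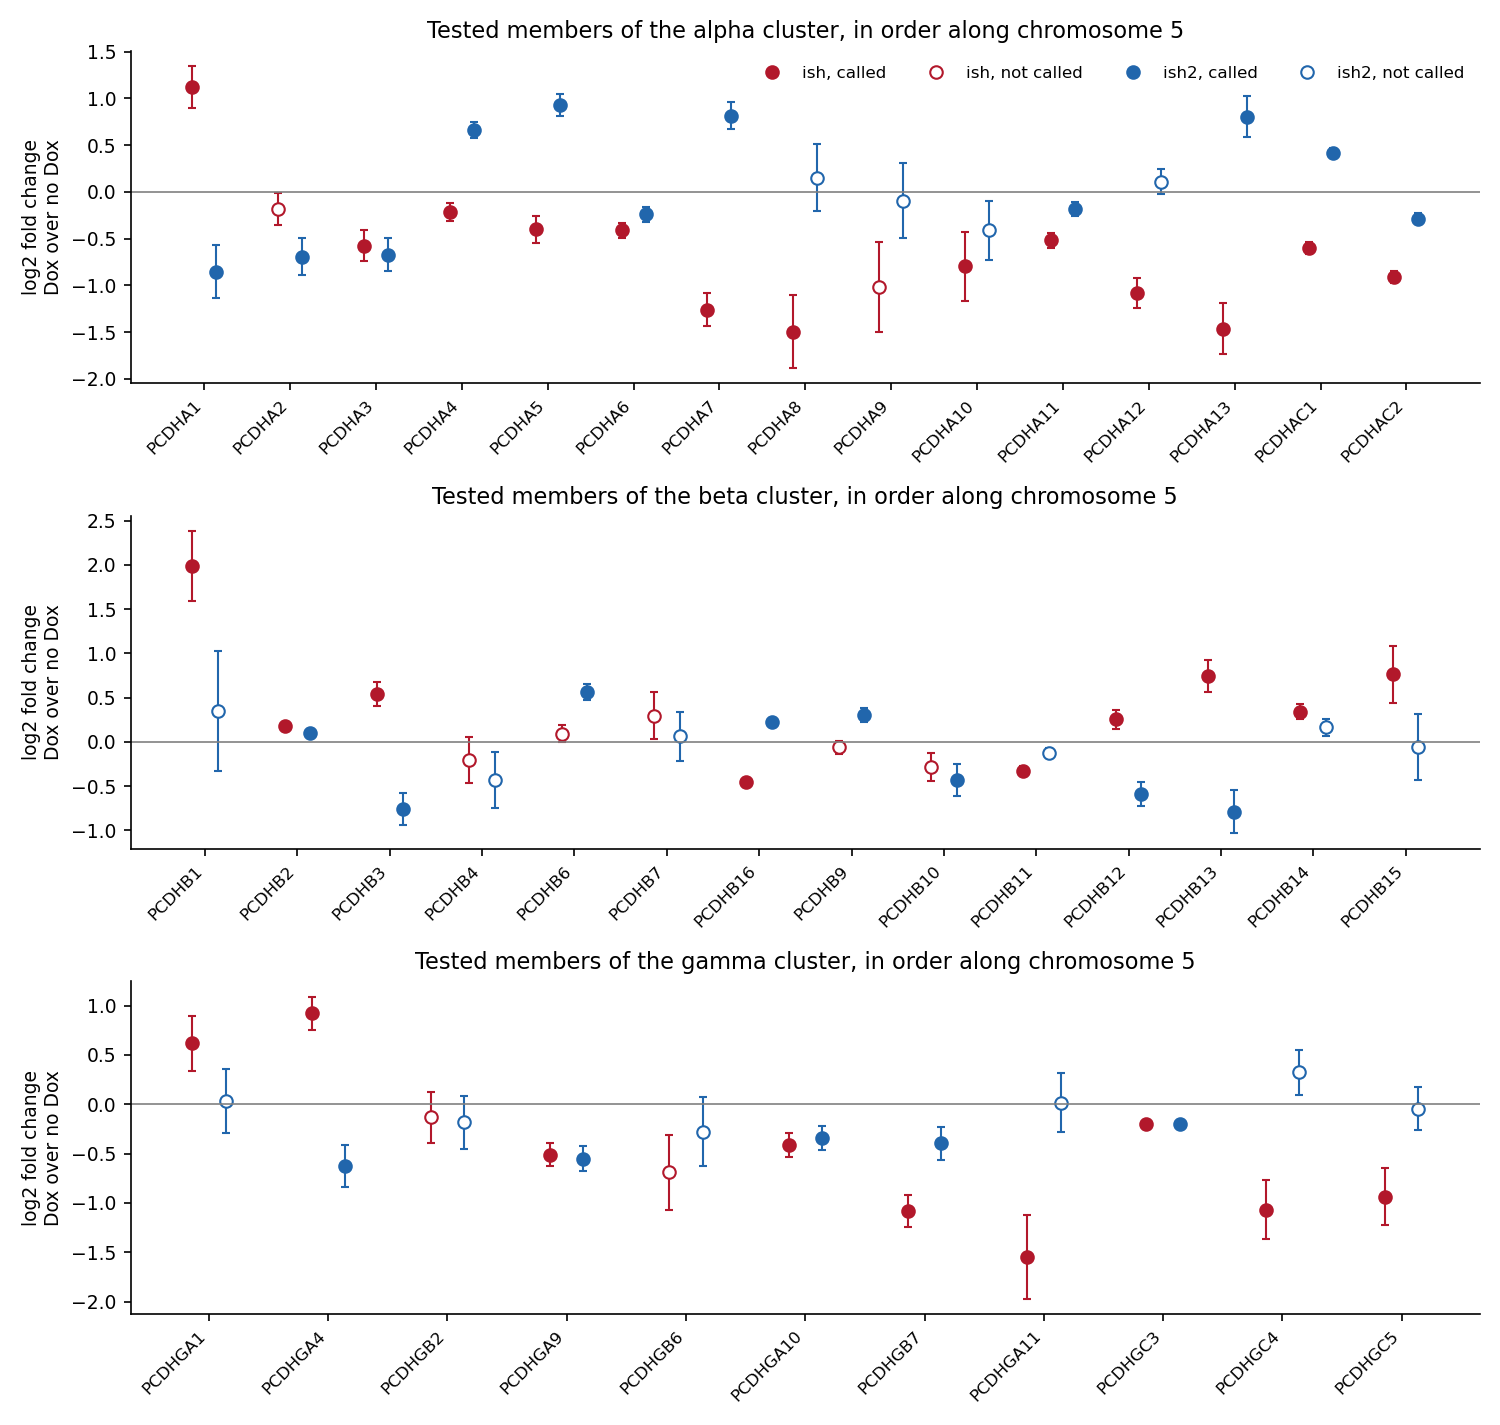
Log2 fold change with Dox (y axis, lines of 1 SE) for the tested members of each cluster in their order along chromosome 5 (x axis), in ish and ish2, with filled points for called values. In the alpha cluster most ish values lie below 0 and those of PCDHA4, PCDHA5, PCDHA7, PCDHA13 and PCDHAC1 lie above 0 in ish2, while PCDHGC3 has nearly equal values in both constructs.

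In the gamma cluster, 2 of 11 tested members rose and 7 fell in ish (18.2% and 63.6%, against 39.1% and 39.5% of all tested genes), and 0 rose and 5 fell in ish2 (edgeR quasi-likelihood test; 0% and 45.5%, against 33.9% and 31.1%). The count of rises in ish2 was also 0 at an unadjusted p under 0.05 and with DESeq2. PCDHGC3 was by far the most abundant clustered protocadherin, at 67.1 CPM per kilobase of unique exon sequence over all libraries, against 12.4 for PCDHB2. It had 216, 206 and 222 CPM with Dox, against 241, 251 and 251 CPM without Dox in ish. Values in ish2 were 231, 223 and 223 CPM with Dox, against 262, 259 and 258 CPM without Dox. The Dox libraries were lower in both constructs without overlap, and the falls of 1.15-fold (edgeR adjusted p = 3.07e-08, log2 fold change -0.20 ± 0.028 SE) and 1.15-fold (edgeR adjusted p = 8.54e-08, log2 fold change -0.20 ± 0.028 SE) differed by 0.0035 ± 0.039 on the log2 scale (± SE; edgeR adjusted p = 0.942). PCDHGC3 lies on chromosome 5, from 141475947 to 141512979 on the plus strand.

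PCDHGA9 and PCDHGA10 also fell in both constructs. PCDHGA9 averaged 3.52 ± 0.514 CPM with Dox and 4.98 ± 0.512 CPM without Dox in ish (log2 fold change -0.51, edgeR adjusted p = 0.000237) and 3.41 ± 0.445 CPM with Dox and 5.02 ± 0.562 CPM without Dox in ish2 (log2 fold change -0.55, edgeR adjusted p = 0.000214). PCDHGA10 averaged 2.68 ± 0.0865 CPM with Dox and 3.56 ± 0.175 CPM without Dox in ish (log2 fold change -0.41, edgeR adjusted p = 0.00266) and 2.97 ± 0.214 CPM with Dox and 3.77 ± 0.496 CPM without Dox in ish2 (log2 fold change -0.34, edgeR adjusted p = 0.0152), where the call was lost without no-Dox replicate 2 (log2 fold change -0.28, edgeR adjusted p = 0.0748) and with DESeq2 (adjusted p = 0.0517). PCDHGB7 fell in ish to 1.41, 1.36 and 1.6 CPM with Dox, against 2.37, 3.51 and 3.38 CPM without Dox (log2 fold change -1.08, edgeR adjusted p = 2.87e-07). Its ish2 fall (log2 fold change -0.39, edgeR adjusted p = 0.0386) was lost without ish2 Dox replicate 2 or 3 or ish2 no-Dox replicate 1 or 2 (edgeR adjusted p = 0.0637 to 0.168) and with DESeq2 (adjusted p = 0.0801), and its difference between constructs (0.69) without ish2 Dox replicate 1 (log2 fold change 0.53, edgeR adjusted p = 0.0582).

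PCDHGA4 was the gamma member with opposite calls. It had 2.89, 2.36 and 2.15 CPM with Dox, against 1.25, 1.12 and 1.52 CPM without Dox in ish and rose (edgeR adjusted p = 9.15e-06, log2 fold change 0.92 ± 0.17 SE). In ish2 it had 0.994, 1 and 0.863 CPM with Dox, against 1.26, 1.8 and 1.34 CPM without Dox and fell (log2 fold change -0.62, edgeR adjusted p = 0.0101), a call that was lost without no-Dox replicate 2 (log2 fold change -0.47, edgeR adjusted p = 0.0831). PCDHGC4 and PCDHGC5, the other C-type gamma genes, were at most 1.37 CPM and were chosen for mention after their values were seen. Both fell in ish (-1.07 ± 0.30 and -0.94 ± 0.29, log2 ± SE) and were not called in ish2.

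Without Dox, the ish2 and ish lines differed at few of these genes. The cadherins CDH2 and CDH11 were lower in ish2, and 0 of 8 cadherins were higher (edgeR quasi-likelihood test; 12.4% and 13.7% of all tested genes). At an unadjusted p under 0.05, 1 cadherin (CDH15) was higher, and 0 were with DESeq2. For CDH2 the difference was -0.19 ± 0.036 (log2 ± SE, ish2 over ish; edgeR adjusted p = 0.000516). Of 49 protocadherins, PCDH7 (0.29 ± 0.024), PCDHAC1 (0.20 ± 0.058) and PCDHB2 (0.10 ± 0.038) were higher in ish2 and PCDH18 was lower (-0.23 ± 0.044). The PCDHAC1 call was lost without ish no-Dox replicate 1 or 3 (edgeR adjusted p = 0.0528 to 0.0679). That of PCDHB2 was lost when any library other than ish no-Dox replicate 2 or ish2 Dox replicate 2 or 3 was left out (edgeR adjusted p = 0.0527 to 0.238), and under every other alternative but the DESeq2 size factors (adjusted p = 0.0553 to 0.0799). Apart from CDH11, these differences were at most 0.29 in size. The Dox effects of CDH2, PCDH18 and PCDHAC1 were larger than these in both constructs, whereas PCDH7 (0.29) had an ish2 Dox effect of 0.24 and PCDHB2 (0.10) one of 0.10.

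Partners of the cadherins were read from lists of named genes. Each list's shares of rises and falls stand beside 39.1% and 39.5% of all tested genes in ish and 33.9% and 31.1% in ish2. Of 15 tested catenins and adherens junction genes, 6 rose and 8 fell in ish (40% and 53.3%), and 2 rose and 8 fell in ish2 (13.3% and 53.3%). CTNNA1, the alpha-catenin that links the cadherin complex to actin, averaged 125 ± 1.65 CPM with Dox and 321 ± 4.04 CPM without Dox in ish (log2 fold change -1.37, edgeR adjusted p = 7.12e-33) and was not called in ish2 (0.0057). CTNNA3, an alpha-catenin of heart and muscle, averaged 1.63 ± 0.232 CPM with Dox and 12.9 ± 0.518 CPM without Dox in ish (log2 fold change -2.99, edgeR adjusted p = 8.67e-25) and 10.5 ± 0.547 CPM with Dox and 14 ± 0.85 CPM without Dox in ish2 (log2 fold change -0.42, edgeR adjusted p = 2.59e-06). Both fell in ish. JUP, plakoglobin, fell to similar levels, 44.6 ± 0.506 CPM with Dox, against 83.1 ± 0.785 CPM without Dox in ish, and 41.8 ± 0.764 CPM with Dox, against 77.6 ± 4.24 CPM without Dox in ish2. Nectin-3, listed under its older symbol PVRL3, rose in ish to 48.7 ± 1.39 CPM with Dox, against 16.1 ± 0.772 CPM without Dox, and rose less in ish2 (0.32, log2). LIMA1, an actin-binding partner of alpha-catenin, rose in ish (log2 fold change 1.54, edgeR adjusted p = 1.16e-31) and fell in ish2 (-0.19). PVRL1 (nectin-1) fell in both (-0.17 in ish and -0.51 in ish2, log2), while PKP4 rose in ish (0.17) and fell in ish2 (-0.55). CTNND1, the p120-catenin, had 38 to 68 counts in any library. GENCODE places a read-through gene, TMX2-CTNND1, over part of it, and that gene was listed at 0 in all 12 libraries, so CTNND1 is reported as uncertain.

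Of 6 tested repressors of cadherin genes, 3 rose and 2 fell in ish (50% and 33.3%), and 3 rose and 3 fell in ish2 (50% each way). SNAI1, the repressor best known for silencing E-cadherin, rose in both, with 12.6 ± 0.715 CPM with Dox and 3.59 ± 0.176 CPM without Dox in ish (log2 fold change 1.81, edgeR adjusted p = 1.76e-20) and 6.55 ± 0.569 CPM with Dox and 3.27 ± 0.0787 CPM without Dox in ish2 (log2 fold change 1.00, edgeR adjusted p = 1.64e-10). ZEB2 averaged 212 ± 7.55 CPM with Dox and 99 ± 4.33 CPM without Dox in ish and rose (log2 fold change 1.10, edgeR adjusted p = 1.12e-26), and averaged 71.8 ± 1.28 CPM with Dox and 99.6 ± 3.27 CPM without Dox in ish2 and fell (log2 fold change -0.47, edgeR adjusted p = 4.63e-14). ZEB1 fell in ish (log2 fold change -0.30, edgeR adjusted p = 1.1e-06) and rose in ish2 (0.15), as did SNAI2 (-0.12 in ish and 0.22 in ish2), and TCF3 rose in ish (0.11) and fell in ish2 (-0.68). Among 6 tested genes of cadherin shedding and turnover, 3 rose and 3 fell in ish (50% each way) and 2 rose and 2 fell in ish2 (33.3% each way). ADAM10, the protease that cleaves N-cadherin, fell in both (-0.18 in ish and -0.36 in ish2, log2). The presenilin PSEN2 rose in both (1.30 and 0.19), and ADAM15 fell in both (-0.72 and -0.19). NCSTN, of the same protease complex as PSEN2, rose in both (0.11 and 0.18).

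CTCF and cohesin fold the protocadherin clusters so that a distant enhancer meets a chosen promoter. Of 16 tested regulators of these promoters, 2 rose and 10 fell in ish (12.5% and 62.5%, against 39.1% and 39.5% of all tested genes), and 1 rose and 10 fell in ish2 (6.25% and 62.5%, against 33.9% and 31.1%), with median log2 fold changes of -0.20 and -0.11. The cohesin subunit SMC1A averaged 170.0 ± 4.98 CPM with Dox and 274 ± 5.7 CPM without Dox in ish (log2 fold change -0.69, edgeR adjusted p = 7.68e-22) and 229 ± 2.07 CPM with Dox and 301 ± 13 CPM without Dox in ish2 (log2 fold change -0.39, edgeR adjusted p = 1.86e-14). RAD21, SMC3 and the cohesin release factor WAPL fell as well, by log2 fold changes of -0.49, -0.44 and -0.66 in ish and -0.11, -0.11 and -0.12 in ish2. CTCF fell in both (-0.22 in ish and -0.31 in ish2). The DNA methyltransferase DNMT3B rose in ish (log2 fold change 0.29, edgeR adjusted p = 3.19e-07) and fell in ish2, where it averaged 21.8 ± 1.78 CPM with Dox and 37.4 ± 1.07 CPM without Dox (log2 fold change -0.79, edgeR adjusted p = 3.38e-16). DNMT3A fell in both (-0.19 and -0.36, log2). Several cohesin genes are expressed with the cell cycle, and the part of that in these falls was not tested.

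Of 12 tested protocadherin effectors, 5 rose and 6 fell in ish (41.7% and 50%), and 5 rose and 4 fell in ish2 (41.7% and 33.3%), shares near those of all tested genes. WASF1, a subunit of the actin-regulating WAVE complex that some protocadherins bind, averaged 41.9 ± 1.69 CPM with Dox and 114 ± 3.53 CPM without Dox in ish (log2 fold change -1.44, edgeR adjusted p = 6.12e-29) and 64.2 ± 0.995 CPM with Dox and 112 ± 4.94 CPM without Dox in ish2 (log2 fold change -0.80, edgeR adjusted p = 6.69e-21). WASF3 and ABI2, of the same complex, fell in both, by -0.40 and -0.095 in ish and -0.32 and -0.23 in ish2 (log2 fold changes), while NCKAP1 rose in both (0.36 and 0.19). BRK1 rose in ish (0.47) and was not called in ish2 (0.044). PTK2, the focal adhesion kinase that the tails of clustered protocadherins can inhibit, fell in ish to 103 ± 0.851 CPM with Dox, against 239 ± 2.72 CPM without Dox (log2 fold change -1.21, edgeR adjusted p = 1.81e-30), and rose slightly in ish2 (log2 fold change 0.093, edgeR adjusted p = 0.00199). Of 15 tested genes elsewhere in the cadherin superfamily, 1 rose and 10 fell in ish (6.67% and 66.7%, against 39.1% and 39.5% of all tested genes), and 6 rose and 5 fell in ish2 (40% and 33.3%, against 33.9% and 31.1%). CLSTN3, a calsyntenin, fell in ish (-1.16) and rose in ish2 (0.32). The desmosomal cadherin DSG2 had 13.6 ± 0.683 CPM with Dox and 4.48 ± 0.388 CPM without Dox in ish2 and rose (edgeR adjusted p = 1.37e-18), and fell in ish (log2 fold change -0.91, edgeR adjusted p = 1.89e-07). DCHS1 and CELSR2, of the planar polarity systems, fell in both constructs, by log2 fold changes of -0.60 and -0.85 in ish and -0.64 and -0.58 in ish2, and CELSR1 fell in ish (-0.49) and rose in ish2 (0.14).

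The 30 members left out by the filter had at most 19 counts in any library. They were 15 cadherins, 2 beta, 11 gamma and 2 nonclustered protocadherins. With no filter on low counts, 24 of the 30 had reads. Of these, 3 were called in ish and 1 in ish2, against 12363 and 9938 of the 21276 genes tested without the filter. In ish, PCDHGA6 had 2 counts in each of the 3 libraries with Dox, against 19, 8 and 8 without Dox (edgeR adjusted p = 3.35e-05, log2 fold change -2.46 ± 0.57 SE). PCDHGA12 (-1.47 ± 0.59, log2 ± SE; edgeR adjusted p = 0.0219) and the type II cadherin CDH22 (-1.76 ± 0.70; edgeR adjusted p = 0.0211) were lower as well. The ish2 call was CDH1, with 0, 1 and 0 counts with Dox, against 14, 0 and 0 without Dox, so that it rested on 1 library. These genes were chosen for mention after their values were seen. No reads were listed for CDH8, CDH10, CDH12, CDH16, CDH18 and PCDH20 in any library.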

How the data were processed

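The authors deposited raw read counts per gene symbol for 12 libraries, as whole numbers. Stranded mRNA libraries were read as 75-base paired ends, per the labels. The tools listed in the submitters' processing notes are STAR 2.7.3a, Trim Galore 0.6.4, Subread 1.6.3 and featureCounts, with the GRCh38 build. The annotation and the counting's strand setting are not given in the sources used. Headers that read Sh2 were matched to the title ish2, and Sh1 to ish. The 5 rows of unassigned reads, 21.0% to 24.4% of a library, were kept out of the fits.

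Genes were filtered by filterByExpr by group (15206 of 26485 kept) and scaled by TMM factors. A single quasi-likelihood fit with 4 group means over all 12 libraries (edgeR 4.0.16, limma 3.58.1, R 4.3.3) gave Dox over no Dox in each construct, the difference of these effects, and ish2 over ish without Dox, with Benjamini-Hochberg adjustment over all tested genes. The SE is back-calculated from the fold change and the F statistic. The biological coefficient of variation was 2.44%, so small changes pass the test. The fit was also run on simulated data in which only a small part of the genes changed, unlike here. No result rests on that run. Replicates within a group differed beyond sampling noise (chi-square per degree of freedom 1.34 to 4.23).

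Members and gene lists were chosen with earlier results of these data known. Named genes are NT5E, every tested cadherin and nonclustered protocadherin, the 4 most abundant members per cluster, the 3 largest called rises and falls per cluster and construct with at least 1 CPM, and up to 4 genes per partner list and construct by p. Positions and exons are from GENCODE 29 (all 87 matched), promoters from RefSeq. A gene of the partner lists is not reported here. Alternatives were other scalings, DESeq2 1.42.0, no filter, the own 6 libraries, a replicate block and each library left out.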

Additional observations from a re-analysis of the deposited data

Results flagged for a closer look

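Among NT5E and the named cadherins and protocadherins, the Dox effect was called different between the constructs for 34 genes. The calls came from the edgeR interaction test over all genes, and named partner genes were not counted here. Values here are the effect in ish2 minus the effect in ish, on the log2 scale. It was 2.74 for NT5E itself. Some of the named cluster members were chosen for the size of their changes. Over all 57 tested members the Dox effect was called different for 38 (66.7%), against 72.6% of all tested genes. A single value here is thus not unusual, and the causes were not tested.

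Among cadherins the difference was 2.08 for CDH2, 1.53 for CDH13, 0.90 for CDH4, 0.72 for CDH26, 0.41 for CDH24, 0.40 for CDH11, -1.08 for CDH7 and -1.58 for CDH15.

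Among protocadherins outside the clusters it was 1.59 for PCDH7, 1.49 for PCDH1, 1.29 for PCDH10, 0.86 for PCDH15, 0.81 for PCDH17, 0.75 for PCDH9, 0.75 for PCDH12 and -2.09 for PCDH18.

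In the alpha cluster it was 2.27 for PCDHA13, 2.08 for PCDHA7, 1.33 for PCDHA5, 1.19 for PCDHA12, 1.02 for PCDHAC1, 0.88 for PCDHA4, 0.63 for PCDHAC2 and -1.98 for PCDHA1. In the beta cluster it was 0.68 for PCDHB16, 0.47 for PCDHB6, 0.37 for PCDHB9, 0.21 for PCDHB11, -0.85 for PCDHB12, -1.30 for PCDHB3 and -1.53 for PCDHB13. In the gamma cluster it was 0.69 for PCDHGB7 and -1.54 for PCDHGA4. With DESeq2 the differences of PCDH10 (adjusted p = 0.0707) and PCDHB11 (adjusted p = 0.109) were not called.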

How the results depend on the processing

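Of 284 recomputed counts of called cadherins or protocadherins, 277 lay within 1.5 times the reported count. The 7 others concern ish2 against ish without Dox. There, cadherins called higher numbered 0 as reported (edgeR quasi-likelihood test) and 1 with DESeq2 size factors, and 0 to 1 as single libraries were left out. Protocadherins called higher numbered 1 to 3 and those called lower 1 to 2 over the same leave-outs. Of 3115 recomputed values of single genes, 3030 kept their direction and their side of the threshold. Reversals concerned uncalled values. CDH26 in ish2 ran from -0.025 to 0.18 over the leave-outs and PCDH19 in ish from -0.25 to 1.25. PCDH15 in ish2 ran from -0.081 to 0.047 over the leave-outs and was -0.0023 with DESeq2 size factors, -0.0019 with the DESeq2 Wald test and -0.0078 with its own 6 libraries. Replicate numbers did not show a pairing of samples (residual correlations of -0.080 to 0.030), and with the replicate block 12 protocadherins rose in ish, and 12 rose and 17 fell in ish2, where PCDH10 and PCDHB10 lost their calls. The DESeq2 Wald test lost 5 of 45 member calls in ish, 6 of 38 in ish2 and 3 of 38 differences, and gained 0 in these. Members under 1 CPM have few reads, and small changes there were not detectable at this depth. The causes of these shifts were not tested.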
